A study of Mus musculus with 6 samples.

Results

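Clock genes, the transcription factors and repressors of the circadian rhythm, were followed in the livers of untreated mice that lacked the receptor TLR3 or carried it. The 10 genes were Arntl (also called Bmal1), Per1, Per2, Per3, Cry1, Cry2, Nr1d1, Nr1d2, Dbp and Hlf. They were taken by name from the array annotation, where each of the 10 had exactly 1 probe set that mapped to 1 gene symbol, among 19938 genes measured in this way. Total liver RNA was hybridised to 1 oligonucleotide array per mouse, for 3 TLR3-/- mice and 3 TLR3wt mice, all 3 months old, untreated, bred in-house under specific-pathogen-free conditions and described as C57Bl/6. How the TLR3-/- allele was made, and the sex of the mice, are not given in the sources used here. The time of day at which the livers were taken and the feeding state are not given there either. Because whole liver was used, fewer cells of a type and less RNA per cell cannot be told apart.

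The clock is a feedback loop of transcription. The activator pair ARNTL (BMAL1) and CLOCK switches on the Per and Cry genes, whose proteins return to repress the pair, and it also switches on Nr1d1 and Nr1d2, which encode the nuclear receptors REV-ERBalpha and REV-ERBbeta that repress Arntl. Dbp and Hlf encode PAR bZIP transcription factors that carry the rhythm on to genes of detoxification and metabolism in the liver. In mouse liver the mRNAs peak in a known order: Arntl at the end of the night, Nr1d1 in the morning to midday, Dbp, Nr1d2 and Per3 in the afternoon, Hlf and Per1 around dusk, Per2 and Cry2 early in the night, and Cry1 late in the night. The comparison of TLR3-/- with TLR3wt livers is read against that order.

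The promoters of the 3 genes whose values did not overlap between the genotypes, Per1, Nr1d1 and Hlf, and of the activator Arntl are shown because the loop acts through short elements of this kind. Each window runs from 250 bases before to 50 bases after an annotated transcription start, in RefSeq sequence of assembly GRCm38.p6, 5′ to 3′ on the strand of the gene. Capitals mark matches, on either strand, to the E-box CACGTG and the E'-box CACGTT (bound by ARNTL and CLOCK), the D-box TTATGTAA or TTATGCAA (bound by DBP and HLF), the AGGTCA half-site (contained in elements bound by REV-ERB) and the cAMP response element TGACGTCA. For Per1 and Arntl, which have 2 windows each, the one with more matches is given.
Per1, chr11:69098699-69098998, plus strand: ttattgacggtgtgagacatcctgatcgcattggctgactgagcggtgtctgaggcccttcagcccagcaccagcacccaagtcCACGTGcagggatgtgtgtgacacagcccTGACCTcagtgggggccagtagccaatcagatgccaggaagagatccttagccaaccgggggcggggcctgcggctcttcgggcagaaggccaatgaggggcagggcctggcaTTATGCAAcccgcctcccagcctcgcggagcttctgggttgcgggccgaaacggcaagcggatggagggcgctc
Nr1d1, chr11:98775328-98775627, minus strand: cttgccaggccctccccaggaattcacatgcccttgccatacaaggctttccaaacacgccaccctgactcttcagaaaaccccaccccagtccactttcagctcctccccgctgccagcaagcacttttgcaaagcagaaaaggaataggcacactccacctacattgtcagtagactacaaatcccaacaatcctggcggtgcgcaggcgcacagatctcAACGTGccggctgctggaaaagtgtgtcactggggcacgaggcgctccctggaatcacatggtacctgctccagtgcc
Hlf, chr11:90390868-90391167, minus strand: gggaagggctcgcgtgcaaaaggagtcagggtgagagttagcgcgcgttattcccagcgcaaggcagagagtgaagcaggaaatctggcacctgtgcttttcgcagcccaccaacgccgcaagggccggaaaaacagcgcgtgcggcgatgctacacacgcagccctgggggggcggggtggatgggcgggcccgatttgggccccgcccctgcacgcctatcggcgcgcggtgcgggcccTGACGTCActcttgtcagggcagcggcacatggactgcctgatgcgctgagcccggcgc
Arntl, chr7:113207261-113207560, plus strand: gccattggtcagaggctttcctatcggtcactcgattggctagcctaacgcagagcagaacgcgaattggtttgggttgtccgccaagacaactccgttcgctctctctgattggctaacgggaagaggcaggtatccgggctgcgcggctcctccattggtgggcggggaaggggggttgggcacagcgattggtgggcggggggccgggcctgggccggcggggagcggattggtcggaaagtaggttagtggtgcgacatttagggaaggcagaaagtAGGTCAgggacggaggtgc
The Per1 window held an E-box, an AGGTCA half-site and a D-box, whose first letters lie 166, 137 and 24 bases upstream of the start. Nr1d1 held 1 E'-box, Hlf 1 cAMP response element and Arntl 1 AGGTCA half-site, and no match overlapped another. Among all 32851 windows of this length, 7.15% held the E-box, 4.68% the E'-box, 16.3% the half-site, 1.79% the cAMP response element and 1.66% a D-box of either form. Windows were found for 9 of the 10 genes (11 windows), and Per2 was not matched. In the windows not printed, Cry1 held an E-box and an E'-box, Cry2 an E'-box, Nr1d2 a half-site and Per3 a pair of D-boxes. These matches are letters in a window and were not tested for binding.

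The deposited signal is on a log2 scale with a floor of exactly 5, and on each array 57.2% to 57.6% of the probe sets had this value. The Tlr3 probe set was at this floor on all 6 arrays, so the array gave no check of the genotype labels. TLR3wt replicate 3 stood apart from the other livers on the second principal component. On the first (39.5% of the variance) it lay at -20.2, at the end of the TLR3wt livers. The other TLR3wt livers lay there at -5.12 and -14.8, and the TLR3-/- livers at 11.1 to 16.5. On the second principal component (22.2% of the variance) it lay at -17.6, against 14.5 and 11.1 for TLR3wt replicates 1 and 2 and -4.70 to 0.66 for the TLR3-/- livers. Results on the clock genes are therefore given with and without it. Genotypes were compared with limma on the 16639 probe sets above the floor on at least 1 array, and a gene was called when its p, adjusted over all of these by the Benjamini-Hochberg method, was under 0.05.

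None of the clock genes was called. Of the 10, 9 were tested, Per3 being at the floor on all 6 arrays, and 0 passed in limma, where 0.186% of all tested probe sets passed. At an unadjusted p under 0.05, limma gave 4 of the 9 (Nr1d1, Cry2 and Hlf with the higher and Per1 with the lower mean in TLR3-/- livers), against 14.5% of all tested probe sets. Without TLR3wt replicate 3 it again gave 4 of the 9, but Arntl and Cry1 (higher) stood in the place of Nr1d1 and Cry2 beside Hlf and Per1, against 13.3% of the probe sets then tested. The values of the genotypes did not overlap for 3 of the 9, with Nr1d1 and Hlf higher and Per1 lower in every TLR3-/- liver, against 20.1% of all tested probe sets (13.0% higher and 7.04% lower in every TLR3-/- liver). Without TLR3wt replicate 3 the count of non-overlapping genes was 6 of 9 (Arntl, Nr1d1, Hlf and Cry1 higher, Per1 and Per2 lower), against 29.7% of the probe sets then tested. Leaving out any other liver gave a count of 3 or 4 of 9, against 26.8% to 33.2% of the probe sets then tested. The median log2 difference of the 9 genes, TLR3-/- minus TLR3wt, was 0.25, and that of all tested probe sets was 0.03.

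**Figure D1:**
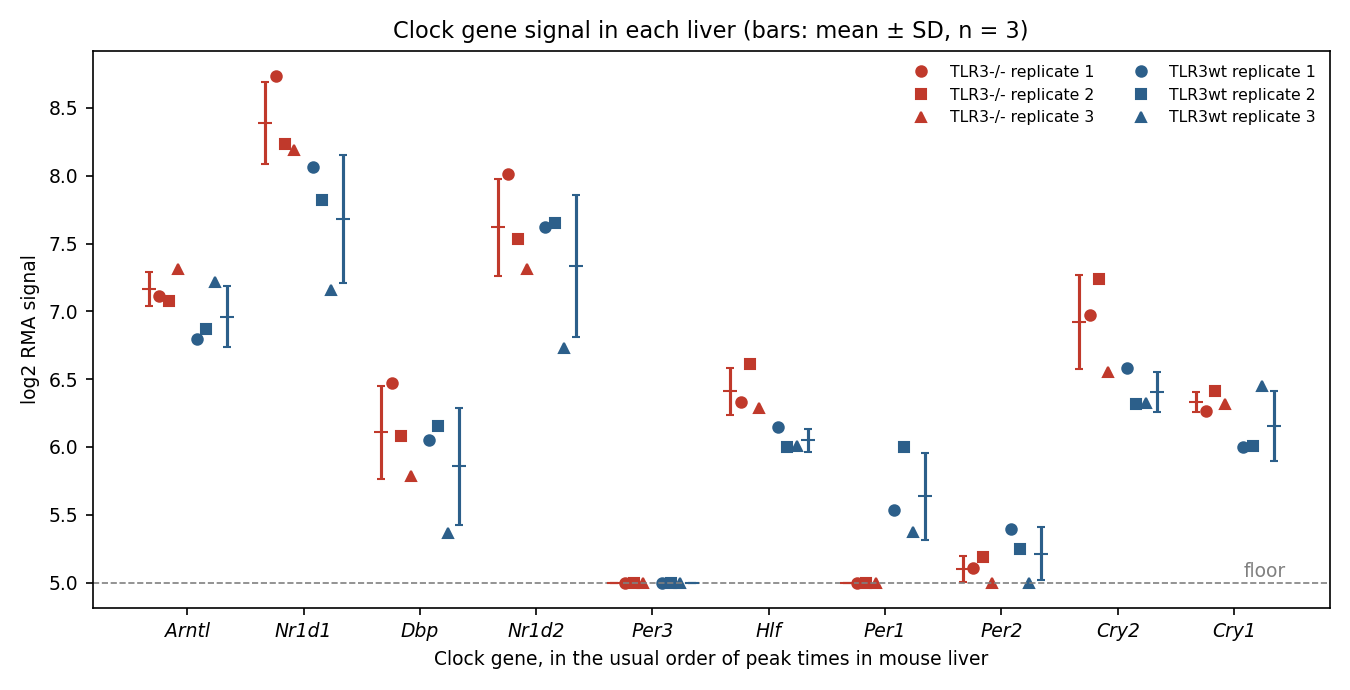
Log2 RMA signal of the 10 clock genes (horizontal axis, in the usual order of peak times) in each liver, with 3 TLR3-/- livers in red left of 3 TLR3wt livers in blue. Bars beside the points give the mean ± SD (n = 3) and the dashed line is the floor of 5, where Per3 lies in all livers and Per1 in the TLR3-/- livers.

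The activator of the loop, Arntl (probe set 10556463), had log2 signals of 7.12, 7.07 and 7.31 in TLR3-/- livers, against 6.80, 6.87 and 7.22 in TLR3wt livers. The groups overlapped, because TLR3wt replicate 3 lay above TLR3-/- replicates 1 and 2. The difference was 0.21 ± 0.13 (log2, standard error; limma adjusted p = 0.516). Its partner gene Clock (10530733) averaged 7.98 ± 0.06 in TLR3-/- and 7.87 ± 0.08 in TLR3wt livers (SD, n = 3 each; limma adjusted p = 0.487).

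Among the Per genes, which encode the repressors that bind CRY proteins, Per1 (10377439) stood at the floor of 5 in all 3 TLR3-/- livers, against 5.54, 6.00 and 5.37 in TLR3wt livers. Every TLR3wt liver thus had Per1 signal above the floor and no TLR3-/- liver did. Per1 was at least 1.55-fold lower in TLR3-/- livers, a bound because their level is known only as the floor or below (limma adjusted p = 0.180). With an unadjusted p of 0.00624 in limma, the smallest of the 9 clock genes, it was 574th of the 16639 probe sets. Per1 was tested only because its TLR3wt values lie above the floor. Its TLR3-/- values at the floor have no spread (SD 0), which enters this p and rank. Neither is read as support, nor is the place of Per1 in the counts above. Per1 is also induced directly by glucocorticoids and by cAMP signalling, outside the loop.

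Per2 (10356601) lay close to the floor, at 5.11, 5.19 and 5 in TLR3-/- livers against 5.39, 5.25 and 5 in TLR3wt livers. One liver of each genotype was at the floor, and the groups overlapped (difference -0.11 ± 0.11, standard error; limma adjusted p = 0.697). Per3 (10518781) was at 5 in all 6 livers and gave no difference.

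The Cry genes encode the stronger repressors of the pair ARNTL and CLOCK. Cry2 (10485170) was at 6.97, 7.24 and 6.55 in TLR3-/- livers and at 6.58, 6.32 and 6.33 in TLR3wt livers. Only TLR3-/- replicate 3 fell within reach of the TLR3wt livers, just under TLR3wt replicate 1. The mean was 1.43-fold higher in TLR3-/- livers (log2 difference 0.51 ± 0.18, standard error; limma adjusted p = 0.284). Cry1 (10371400) was at 6.26, 6.41 and 6.32 in TLR3-/- livers against 6.00, 6.01 and 6.45 in TLR3wt livers. TLR3wt replicate 3 held the highest Cry1 value of all 6, so the groups overlapped (difference 0.18 ± 0.13; limma adjusted p = 0.601).

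The REV-ERB genes had the widest spread between mice. Nr1d1 (10390691) was at 8.74, 8.23 and 8.19 in TLR3-/- livers, against 8.07, 7.82 and 7.16 in TLR3wt livers. All 3 TLR3-/- livers lay above all TLR3wt livers, by 0.13 between the nearest pair. The mean was 1.63-fold higher in TLR3-/- livers and was not called (log2 difference 0.71 ± 0.26, standard error; limma adjusted p = 0.304). The 95% interval before adjustment was 0.065 to 1.35, and without TLR3wt replicate 3 the difference was 0.44. Nr1d2 (10417734) was at 8.01, 7.54 and 7.31 in TLR3-/- livers and at 7.62, 7.65 and 6.73 in TLR3wt livers. The groups overlapped, and the difference was 0.29 ± 0.30 (limma adjusted p = 0.712).

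The PAR bZIP genes showed the same division. Hlf (10389786) was at 6.33, 6.61 and 6.29 in TLR3-/- livers against 6.15, 6.00 and 6.01 in TLR3wt livers. The groups did not overlap, and the mean was 1.28-fold higher in TLR3-/- livers (log2 difference 0.36 ± 0.10; limma adjusted p = 0.212). Dbp (10553092) was at 6.47, 6.08 and 5.78 in TLR3-/- livers and at 6.05, 6.15 and 5.36 in TLR3wt livers. TLR3-/- replicates 2 and 3 lay within the TLR3wt range, and the difference was 0.25 ± 0.26 (limma adjusted p = 0.708). The third PAR bZIP gene, Tef (10425601), averaged 6.64 ± 0.32 in TLR3-/- and 6.58 ± 0.27 in TLR3wt livers (SD, n = 3 each; limma adjusted p = 0.909).

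Along the order of peak times, the night-peaking Arntl and Cry1 (0.21 and 0.18) and the day-peaking Nr1d1, Dbp and Nr1d2 (0.71, 0.25 and 0.29) all had the higher mean in TLR3-/- livers. Around dusk and early night, neighbours in the order lay on both sides of 0, with Hlf at 0.36 beside Per1 at -0.64, and Per2 at -0.11 beside Cry2 at 0.51. In all, 7 of the 9 means were higher and 2 lower in TLR3-/- livers, and over all tested probe sets 9783 were higher and 6856 lower. Of these 9 differences 0 were called in limma, so the order of the values is a description of these 6 livers.

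**Figure D2:**
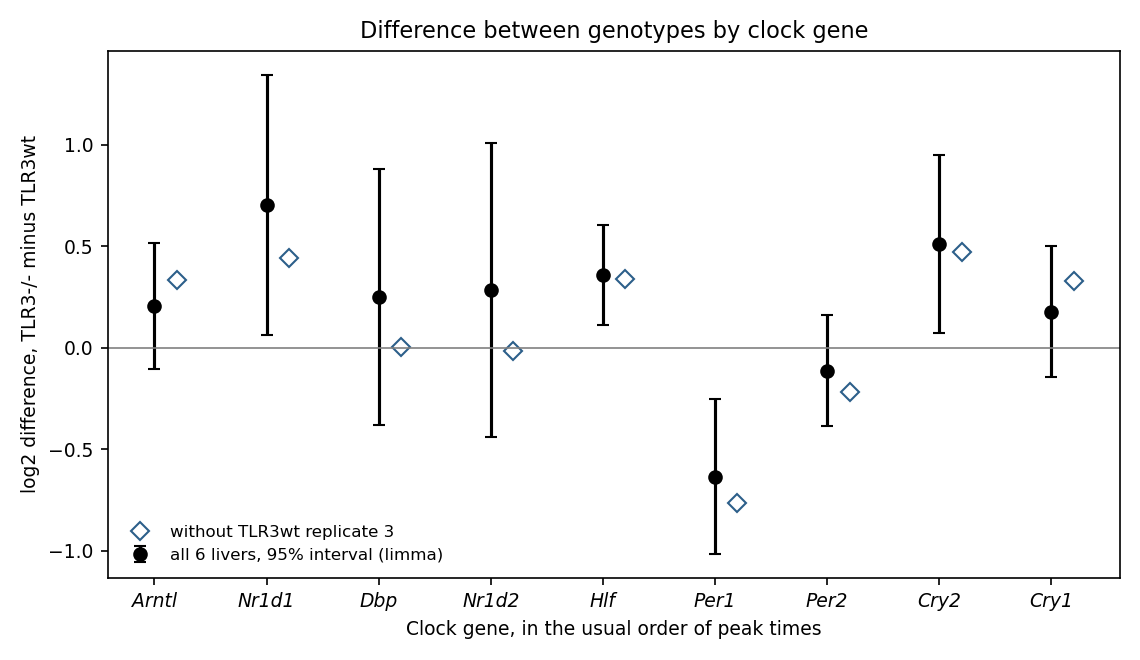
Log2 difference, TLR3-/- minus TLR3wt, of the 9 clock genes above the floor, in the usual order of peak times. Filled points are all 6 livers with limma's 95% interval before adjustment, and open diamonds leave out TLR3wt replicate 3, which brings Dbp and Nr1d2 to about 0 and leaves Per1 the lowest.

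TLR3wt replicate 3 decided several of these values. Without it the difference was 0.0052 for Dbp and -0.016 for Nr1d2, and that of Nr1d1 was smaller, as given above. Arntl (0.33), Cry1 (0.33) and Per2 (-0.22) then lay further from 0. The differences of Hlf (0.34), Cry2 (0.47) and Per1 (-0.77) moved by less than 1.5 times. With TLR3-/- replicate 1 left out instead, Dbp was at 0.072 and Nr1d2 at 0.089. Without TLR3-/- replicate 3, Dbp was at 0.42, Nr1d2 at 0.44, Arntl at 0.13 and Per2 at -0.063. Leaving out TLR3wt replicate 1 gave 0.12 for Arntl, 0.10 for Cry1, 0.43 for Nr1d2 and -0.025 for Per2, and leaving out TLR3wt replicate 2 gave 0.11 for Cry1, 0.40 for Dbp and 0.44 for Nr1d2.

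Between mice of one genotype, the day-peaking genes differed together. The mean of Nr1d1, Dbp and Nr1d2, each set against its own mean over the 6 livers, was 0.57, 0.12 and -0.07 in TLR3-/- livers and 0.08, 0.04 and -0.75 in TLR3wt livers (log2). The same mean for Arntl and Cry1 was 0.04, 0.09 and 0.16 in TLR3-/- livers and -0.25, -0.21 and 0.18 in TLR3wt livers. TLR3wt replicate 3 thus had the lowest day-peaking mean of the 6 and the highest mean of Arntl and Cry1. TLR3wt replicates 1 and 2 had the lowest means of Arntl and Cry1. Among TLR3-/- livers, replicate 1 had the highest day-peaking mean and the lowest mean of Arntl and Cry1, and replicate 3 the reverse. Cry2 and Per2, which peak early in the night, did not follow Arntl and Cry1. Set against its own mean, Cry2 was at 0.31, 0.57 and -0.11 in TLR3-/- livers and -0.09, -0.34 and -0.34 in TLR3wt livers. Per2, near the floor, was at -0.05, 0.03 and -0.16 in TLR3-/- livers and 0.23, 0.09 and -0.16 in TLR3wt livers.

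**Figure D3:**
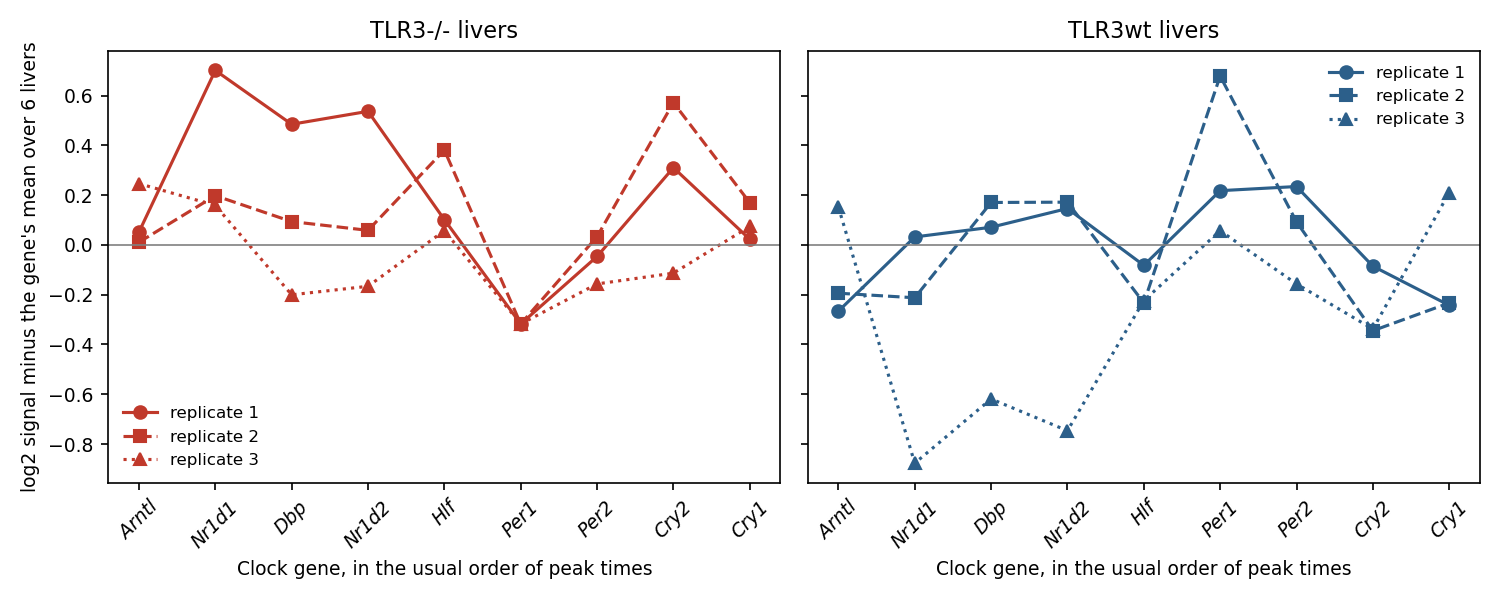
Log2 signal of 9 clock genes minus each gene's mean over the 6 livers, 1 line per mouse, with TLR3-/- livers in the left panel and TLR3wt livers in the right panel. TLR3wt replicate 3 is low for Nr1d1, Dbp and Nr1d2 and high for Arntl and Cry1, and the 3 TLR3-/- lines meet at Per1, where all are at the floor.

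These spreads were wide for the array. The pooled within-genotype SD was 0.45 for Nr1d2, 0.40 for Nr1d1 and 0.39 for Dbp (log2), larger than that of 98.3%, 97.5% and 97.3% of the tested probe sets, and their median was 0.11. Hlf had the smallest SD of the 9 genes, at 0.14. Hlf thus had a smaller standard error than Nr1d1, whose mean difference was larger.

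Other transcription factors of the clock gave no call either. Of 12 listed, 10 had a 1-symbol probe set, and 5 of those (Rorb, Bhlhe41, Ciart, Arntl2 and Timeless) were at the floor on all arrays. None of the 5 tested passed in limma, 1 had an unadjusted p under 0.05 (14.5% of all tested probe sets), and in all 5 the groups overlapped. That gene was Bhlhe40 (10540472), which encodes the repressor DEC1 and is itself switched on through E-boxes, at 6.56, 6.28 and 5.56 in TLR3-/- livers against 7.09, 6.89 and 6.50 in TLR3wt livers. Only TLR3-/- replicate 1 reached the lowest TLR3wt liver (difference -0.69 ± 0.28, standard error; limma adjusted p = 0.337). Nfil3, a repressor that competes for D-boxes, and Rora, an activator of Arntl, had differences of -0.13 and -0.0034 (limma adjusted p = 0.831 and 0.995).

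Of 20 genes for clock kinases, ubiquitin ligases and cofactors, 16 were tested and 0 passed in limma, with 3 at an unadjusted p under 0.05. Their median difference was 0.06, 4 lay higher in every TLR3-/- liver and 0 lower. Of all tested probe sets, 13.0% lay higher and 7.04% lower in this way, and 14.5% had an unadjusted p under 0.05 in limma. The deacetylase gene Sirt1 (10369738) averaged 6.66 ± 0.06 in TLR3-/- and 6.47 ± 0.05 in TLR3wt livers. The kinase gene Csnk1a1 averaged 8.94 ± 0.07 in TLR3-/- and 8.77 ± 0.07 in TLR3wt livers (SD, n = 3 each; limma adjusted p = 0.2401 for Sirt1 and 0.336 for Csnk1a1). Wdr5, Cipc, which encodes an inhibitor of CLOCK, and Cul1 had differences of 0.20, 0.26 and 0.08.

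Genes known to cycle in liver downstream of the clock or of feeding were tested as a further list of 26, of which 22 were tested. None passed in limma and 9 had an unadjusted p under 0.05. In every TLR3-/- liver 4 lay higher and 4 lower, and the median difference was -0.08. The shares over all tested probe sets were 14.5% at such a p, 13.0% higher and 7.04% lower. Lpin1 (10399478), the phosphatidate phosphatase gene, was at 7.76, 6.60 and 6.21 in TLR3-/- livers against 8.98, 9.88 and 7.93 in TLR3wt livers. Its groups did not overlap, but its within-group spread was also large (difference -2.07 ± 0.59, standard error; limma adjusted p = 0.214). Nr1i3 (10351533), which encodes the xenobiotic receptor CAR and is controlled by PAR bZIP factors, was at 9.35, 9.56 and 9.29 in TLR3-/- livers against 8.75, 8.94 and 8.74 in TLR3wt livers. Nr1i3 was thus higher in each TLR3-/- liver (difference 0.59 ± 0.10; limma adjusted p = 0.111). Cyp7a1, which encodes the enzyme that opens the classical route of bile acid synthesis, had a difference of -1.25, Coq10b one of -0.52, and the lipase inhibitor gene G0s2 one of 0.56 (limma adjusted p = 0.156, 0.207 and 0.217).

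Glucocorticoids induce Per1, and 11 other genes that they induce were set beside it. Of these, 9 were tested and all 9 had the lower mean in TLR3-/- livers (median -0.65), 7 with no overlap. In limma 0 passed and 6 had an unadjusted p under 0.05. Over all tested probe sets the shares were 7.04% lower in every TLR3-/- liver and 14.5% at such a p. Dusp1, a phosphatase gene, averaged 7.95 ± 0.26 in TLR3-/- and 9.003 ± 0.21 in TLR3wt livers. Tsc22d3, which encodes GILZ, averaged 6.60 ± 0.27 in TLR3-/- and 7.38 ± 0.14 in TLR3wt livers (SD, n = 3 each; limma adjusted p = 0.0994 for Dusp1 and 0.138 for Tsc22d3). Zbtb16, Tat and Fkbp5 had differences of -1.16, -0.39 and -0.74. The part of glucocorticoid level in the Per1 difference was not tested.

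**Figure D4:**
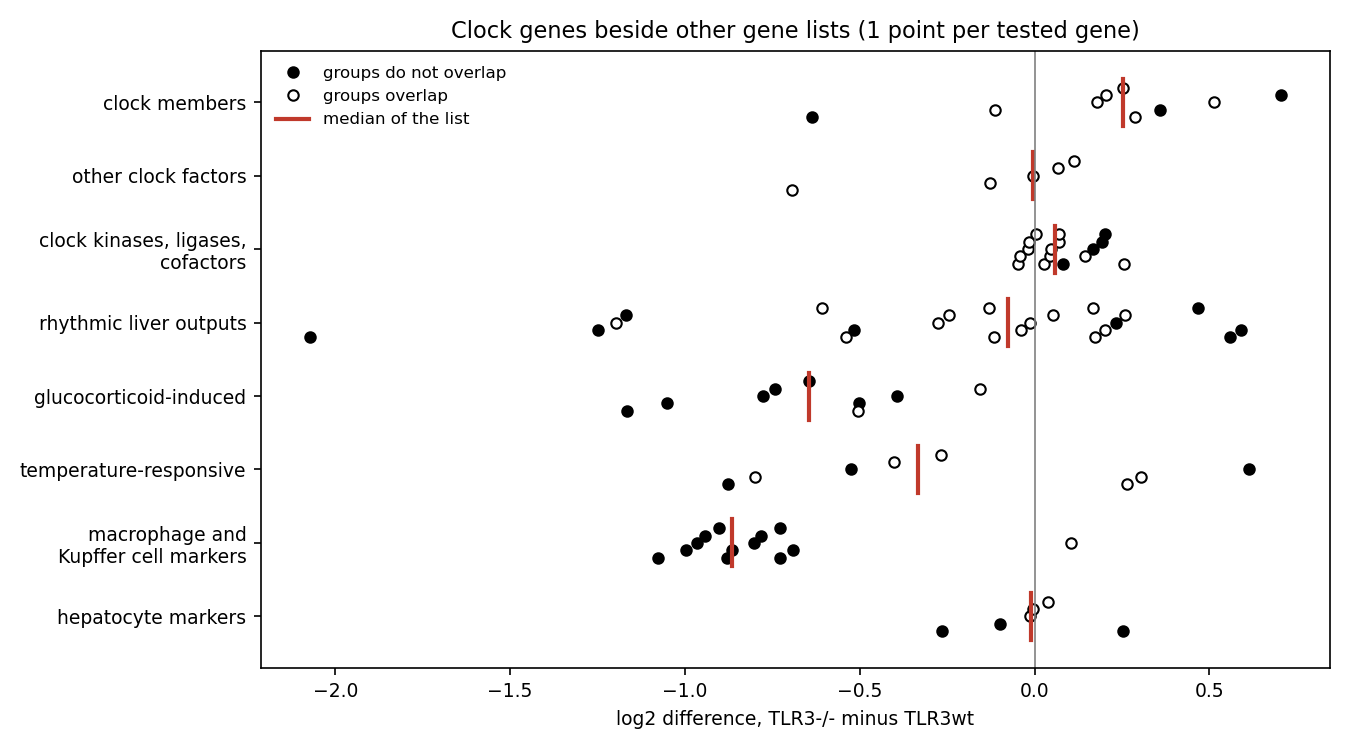
Log2 difference, TLR3-/- minus TLR3wt (horizontal axis), of each tested gene in 8 lists, 1 point per gene, filled where the genotypes did not overlap, with the median of each list in red. The clock genes spread from -0.64 to 0.71, with 3 filled points, and the glucocorticoid-induced genes all lie below 0.

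Markers of cell types gave the setting of these values. Of 13 tested macrophage and Kupffer cell markers 12 had a lower mean in TLR3-/- livers, all 12 with no overlap (median -0.87). None passed in limma (adjusted p at least 0.0994), and 12 had an unadjusted p under 0.05. Of all tested probe sets, 14.5% had such a p and 7.04% lay lower in every TLR3-/- liver. Mean marker level was 6.38 to 6.98 in TLR3-/- and 7.30 to 7.77 in TLR3wt livers, with Cd14 at the floor on all arrays. The 6 tested hepatocyte markers, which define the tissue, had mean levels of 12.15 to 12.18 in TLR3-/- and 12.12 to 12.21 in TLR3wt livers, with Alb at 13.06 ± 0.03 in TLR3-/- and 13.08 ± 0.01 in TLR3wt livers (SD, n = 3 each). These members went both ways, and 3 of the 6 did not overlap between the genotypes, against 20.1% of all tested probe sets. The regulator gene Hnf4a and the apolipoprotein gene Apoa1 were lower (-0.26 and -0.10) and the cytochrome gene Cyp2e1 higher (0.25) in every TLR3-/- liver. None of the 6 passed in limma, and 1, Hnf4a, had an unadjusted p under 0.05, against 14.5% of all tested probe sets. All measured lymphocyte markers except Cd8a were at the floor on all arrays, and the part of macrophages in the clock values was not tested.

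Some genes outside the clock had profiles over the 6 livers close to those of clock genes. Likeness was measured among 10338 genes as the root mean square distance between log2 profiles, each set against its own mean over the 6 arrays. Closest to Dbp was Slc2a2, the glucose transporter gene of hepatocytes (distance 0.07, where Dbp's own root mean square deviation was 0.34), followed by Rdh16 and Bmp2. Slc2a2 was at 10.35, 10.03 and 9.85 in TLR3-/- and 10.15, 10.12 and 9.33 in TLR3wt livers, with TLR3wt replicate 3 lowest as for Dbp. Closest to Nr1d1 were Nat8 (0.10), Pdk1 (0.17), which encodes a kinase of pyruvate dehydrogenase, and Plscr2 (0.17). Nat8 was at the floor of 5 in TLR3wt replicate 3. Closest to Arntl were Atmin, Lgalsl and Cdk20 (0.03 each, against 0.18 for Arntl itself). Closest to Per2 were Taf11, Prelid3b and Mrpl11 (0.04 each, against 0.14). Per2 itself was at the floor in replicate 3 of both genotypes, so its profile is cut off there. With 6 arrays and this many candidates, close profiles are a description only.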

How the data were processed

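RNA from the whole liver of 6 mice was hybridised to 1 array each. The authors deposited log2 signals. Per the submitters' processing notes these were made with RMA (background correction, quantile normalisation and a summary of the probes) in the program Affymetrix Expression Console, and they were not rescaled here. What set the floor of 5 was not stated, and a difference is understated where only the lower group has values at the floor. With floor values in both groups, as for Per2, the error can run either way. Samples were grouped by title, and 0 columns belonged to other samples. Gene names came from the array annotation, updated by gene identifier to assembly GRCm38.p6 (99.6% matched). The brightest 1-symbol probe set stood for a gene.

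The genotypes were tested in R 4.3.3 with limma 3.58.1 (lmFit and eBayes, two-sided, Benjamini-Hochberg adjustment over 16639 probe sets). Another 18918 probe sets, at the floor in every liver, have no spread and were not fitted. The clock genes, gene lists, this filter and the alternatives were chosen with earlier results of these data known. All 10 clock genes were named. Of the clock cofactors, rhythmic outputs, glucocorticoid-induced and temperature-responsive genes, the 5 with the smallest unadjusted p were named, with all tested clock transcription factors and 3 genes for each of 4 likeness searches. Cell type markers were named after their values were seen. The procedure was tested on simulated normal values without a floor, with the spreads shuffled over probe sets. That test therefore does not cover genes at the floor, such as Per1 and Per2. The 3 mice per group limit the precision.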

Additional observations from a re-analysis of the deposited data

How the results depend on the processing

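The number of clock genes called stayed at 0 under all 18 alternatives run, 6 of which left out 1 liver. The fits held 4 to 9 of the clock genes, with 2 to 5 at an unadjusted p under 0.05 in limma. The share of all probe sets at such a p differed between the fits. With all probe sets of the table limma gave 2 of 9 clock genes, against 2018 of 35557 probe sets. The fit of the 8319 brighter probe sets gave 2 of 4, against 1282 probe sets. The 5 of 9 came with the replicate number as a block, against 2163 of 16639 probe sets. The alternative with an ordinary t test and pooled variance gave 2 of 9, against 1953 of 16639 probe sets. Of the 9 tested clock genes, 8 kept the direction of their difference under each alternative that held them. Nr1d2 ranged from -0.016 to 0.44 over the fits without 1 liver, with the lower mean in TLR3-/- livers only without TLR3wt replicate 3. The count of genes without overlap ranged from 3 to 6 when 1 liver was left out (26.8% to 33.2% of all probe sets then tested), an alternative chosen after seeing the data.

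The number of probe sets called depended more on the processing. Against 31 (23 higher, 8 lower), limma called 0 with all probe sets of the table (2018 at an unadjusted p under 0.05), 18 with those above the floor on all arrays (9 higher, 9 lower), 1 with 1-symbol probe sets and 3 with identical profiles entered once. It called 9 after quantile normalisation again and 14 with arrays centred on their median (8 higher, 6 lower). An ordinary t test with pooled variance, without limma's moderation of the variance, called 2. In limma, leaving out 1 liver gave 0 to 13. The cause was not tested.

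With the replicate number as a block, 4 probe sets and 0 clock genes were called in limma. Over all tested probe sets, same-numbered livers did not deviate together (correlations of 0.05, -0.01 and -0.06), and 1 of 6 livers correlated best with its own number. Among the clock genes, the mean of Nr1d1, Dbp and Nr1d2 fell from replicate 1 to replicate 3 in both genotypes. That of Arntl and Cry1 rose in both. The block lowered the standard error of Nr1d1 from 0.26 to 0.14, of Dbp from 0.26 to 0.13 and of Nr1d2 from 0.30 to 0.15. It was also lower for the other clock genes except Hlf (0.10 to 0.11). With the block, limma gave 5 of the 9 at an unadjusted p under 0.05, Arntl being added, against 2163 of the 16639 probe sets. Per1, at the floor in all TLR3-/- livers, is among the 5 and is again not read as support. No clock gene had more than 1 probe set with 1 symbol, so no alternative on the choice of probe set was run. Probe sets with several symbols were not searched for clock genes. Clock genes near the floor, Per1, Per2 and Per3, are limited by it.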

Other observations

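Genes that follow body temperature, a further signal that entrains peripheral clocks, were split in direction. Of 8 tested, 0 passed in limma and 3 had an unadjusted p under 0.05, against 14.5% of all tested probe sets. Cirbp, which encodes a cold-inducible RNA-binding protein, was at 7.41, 6.95 and 7.0 in TLR3-/- livers against 6.50, 6.37 and 6.65 in TLR3wt livers, and was higher in each TLR3-/- liver (difference 0.61 ± 0.14, standard error; limma adjusted p = 0.169). Rbm3, another cold-inducible gene, had a difference of 0.31 with overlapping groups (limma adjusted p = 0.385). The co-chaperone gene Dnajb1 was at 6.60, 6.78 and 6.25 in TLR3-/- livers against 7.35, 7.77 and 7.14 in TLR3wt livers, lower in each TLR3-/- liver (difference -0.88 ± 0.20; limma adjusted p = 0.167). Hspa1a and Hspa8, heat shock protein genes, had differences of -0.52 and -0.40.

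Markers of other cell types were also measured. Of 8 endothelial markers 2 lay lower in every TLR3-/- liver, Pecam1 (-0.24) and Lyve1 (-0.56), and the median was -0.10. In limma 0 passed and 2 had an unadjusted p under 0.05. Among all tested probe sets 7.04% lay lower in every TLR3-/- liver and 14.5% had such a p. The 6 tested stellate cell markers had a median of 0.12 with all groups overlapping, and in limma 0 passed and 0 had an unadjusted p under 0.05. The cholangiocyte marker Sox9 had a difference of 0.19 and the erythroid marker Alas2 one of -0.22, with overlap. Slc4a1, also erythroid, was at the floor in all 3 TLR3-/- livers and in TLR3wt replicate 1. Its difference of -0.34, with overlap, is limited by the floor.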
